A study of Arabidopsis thaliana with 8 samples.

Results

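The 10 genes described here encode the morning side of the Arabidopsis thaliana circadian clock. They are CCA1 (AT2G46830), LHY (AT1G01060) and 6 REVEILLE genes, RVE1 (AT5G17300), RVE2 (AT5G37260), RVE4 (AT5G02840), RVE5 (AT4G01280), RVE6 (AT5G52660) and RVE8 (AT3G09600), which encode MYB-like DNA-binding proteins, and LNK1 (AT5G64170) and LNK2 (AT3G54500), which encode proteins that act with some of them. They were taken by locus name from a table of 33674 features, and all 10 were among the 21008 features with enough reads to be tested. mRNA was sequenced from seedlings 13 days old, grown at 16 h light and 8 h dark with 22 °C days and 18 °C nights. The 4 groups were wild type (Col-0) at 0 µM abscisic acid (ABA), wild type at 100 µM ABA, skip-1 at 0 µM ABA and skip-1 at 100 µM ABA, each treated for 3 h. Every group had 2 libraries. The skip-1 groups come from a single mutant line of SKIP, a gene for a splicing factor and transcriptional regulator, in the Columbia background. The sources used here give neither the lesion of the allele nor the time of day at which seedlings were collected.

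CCA1 and LHY are closely related proteins whose transcripts peak near dawn and which repress genes of the day and evening. RVE8, RVE6 and RVE4 bind the same kind of DNA element, the evening element, but activate transcription, and LNK1 and LNK2 are recruited by these proteins as coactivators. The PRR proteins and TOC1, made later in the day, repress CCA1 and LHY in turn. ABA is the hormone of drought and salt stress, and the level of a clock transcript in seedlings depends on the hour of collection.

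The sequences just upstream of these genes are shown because they hold motifs of the kinds used by ABA and clock factors. G-boxes (CACGTG) can be bound by bZIP and bHLH proteins, among them factors of the ABA pathway and the PIFs. In the 300 bases before the annotated gene start, searched on both strands, 5 of the 10 genes held a G-box, against 7.09% of 27443 protein-coding genes. In the lines below the G-box is in capitals with 20 bases on each side, 5′ to 3′ on the strand of the gene, from the TAIR10.1 sequence of RefSeq.
CCA1 (chr2:19245378-19245423, plus strand): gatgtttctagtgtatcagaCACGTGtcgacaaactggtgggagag
LHY (chr1:37926-37971, minus strand): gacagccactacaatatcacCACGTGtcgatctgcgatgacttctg
RVE1 (chr5:5693078-5693123, minus strand): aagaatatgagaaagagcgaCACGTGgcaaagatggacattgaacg
RVE2 (chr5:14753226-14753271, minus strand): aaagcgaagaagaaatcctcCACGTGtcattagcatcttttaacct
RVE5 (chr4:535126-535171, plus strand): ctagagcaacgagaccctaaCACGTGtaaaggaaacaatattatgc

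The G-box began 193 bases before the start of CCA1, 80 before LHY, 111 before RVE1, 163 before RVE2 and 52 before RVE5. ACGTGTC, an ABA-response type of sequence that can overlap a G-box, was present before CCA1, LHY, RVE1 and RVE2, and in each of them it overlapped the G-box shown. It was found before 4.05% of all protein-coding genes. ACGTGGC, found before 3.72% of genes, was present before RVE1, RVE2, RVE6 and LNK2. The windows of RVE4, RVE8 and LNK1 held none of the motifs searched. The evening element (AAATATCT), found before 5.64% of genes, was in none of the 10 windows. It was in 6 of the 13 windows of the PRR and evening genes described later. A G-box was in 4 of those 13 windows, and ACGTGTC also in 4. Of the other lists described later, a G-box was in 2 of 4 close relatives, 1 of 9 other clock regulators and 2 of 12 clock outputs. These motifs were thus not particular to the 10 genes. The CCA1-binding site (AAAAATCT), found before 7.94% of genes, was before RVE2 and RVE6. RVE6 and LNK2 are shown with the 90 bases next to the start, with ACGTGGC and, in RVE6, the CCA1-binding site in capitals. These matches describe letters in a window and not binding.
RVE6 (chr5:21362274-21362363, minus strand): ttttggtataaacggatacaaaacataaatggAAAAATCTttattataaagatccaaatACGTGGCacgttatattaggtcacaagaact
LNK2 (chr3:20179071-20179160, minus strand): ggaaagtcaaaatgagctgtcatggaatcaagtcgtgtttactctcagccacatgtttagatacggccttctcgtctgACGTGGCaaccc

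The libraries held between 20870110 and 23640113 counted reads, and log2 levels correlated at 0.983 or more within groups and at 0.959 or less between groups. SKIP itself was at 150 and 163 CPM (read counts scaled to library size) in wild type without ABA and at 104 and 133 in skip-1 without ABA, and it was not called in any comparison, so its level does not check the genotype labels. The ABA-induced genes RAB18, RD29B and KIN1 summed to 17.5 and 17.1 CPM in wild type without ABA and to 2022 and 2156 with ABA, and in skip-1 to 15.0 and 18.7 without and to 1111 and 922 with ABA. The material was checked for shoot, root, seed and flower genes. Summed CPM of 3 shoot genes was 11225 and 9839 in untreated wild type, 18533 and 16006 in untreated skip-1, 9895 and 8033 in wild type given ABA, and 12538 and 11726 in skip-1 given ABA. In the same order of groups, 4 root genes summed to 2201 and 1961, 1414 and 1613, 1304 and 1668, and 960 and 1128 CPM. The 2 seed storage genes CRU3 and SESA3 had no read in any library, the seed oil body gene OLEO2 was at 0.454 CPM or less, and no flower marker exceeded 1.54 CPM. The sums were mostly 1 gene each, RBCS1A for shoot and PYK10 for root, and the members differed. Between genotypes RBCS1A was not called, while LHCB1.1 and LHCB2.1 were higher in skip-1 by 2.43 and 2.89 on the log2 scale without ABA (edgeR adjusted p = 0.0203 and 0.0174) and by 2.23 and 2.78 with ABA (0.0185 and 0.0135). Of the root genes, TIP2;3 was lower in skip-1 under both treatments (-1.33 at 0.0119 and -0.85 at 0.0334) and PYK10 with ABA (-0.51 at 0.0349), and CASP1 and CASP2 were not called. With ABA, CASP1, CASP2 and PYK10 fell and TIP2;3 rose in both genotypes. The part of these marker differences in the results below was not tested. In whole seedlings, fewer cells of a type and less RNA per cell cannot be told apart.

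The morning genes differed between the 2 libraries of a group by a median of 0.52 log2 units in wild type without ABA and 0.29 with ABA, against 0.16 and 0.17 over all tested genes. The spread was widest in skip-1 without ABA. The median difference between its 2 libraries was 0.91 on the log2 scale over the 10 genes, against 0.19 over all tested genes. Replicate 1 was the higher library for 9 of the 10 genes, and 5 differed by more than 1 log2 unit, against 4.10% of all tested genes. CCA1 was 3.83 times as high in replicate 1 as in replicate 2, RVE8 3.58 times, LHY 2.44 times, RVE1 2.18 times and LNK2 2.02 times. Other clock genes described later went both ways in these 2 libraries. Replicate 1 was the higher for 4 of 4 close relatives and 6 of 12 clock outputs. It was the higher for only 2 of 13 PRR and evening genes and 1 of 9 other clock regulators. The cause of this difference between replicates was not tested. In wild type with ABA, LNK1 was 3.05 times and LNK2 2.95 times as high in replicate 1. In skip-1 with ABA, RVE1 was 3.03 times as high in replicate 1, while the median over the 10 genes was 0.17 against 0.16 over all genes. The labels do not say that replicates came from separate cultures, so the p-values measure the spread between libraries, which may be technical.

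**Figure D1:**
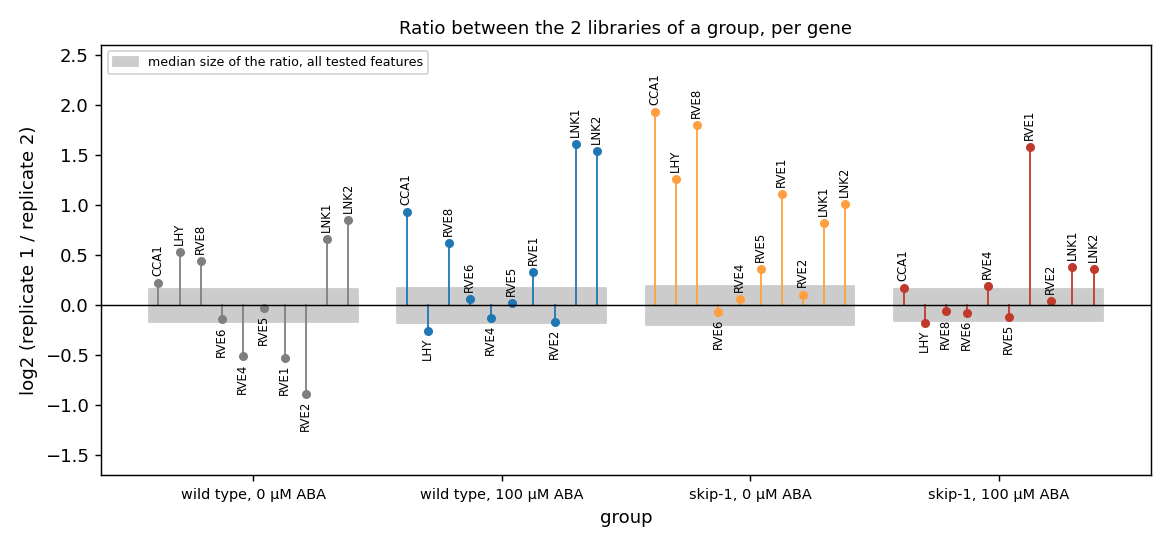
Log2 ratio of replicate 1 to replicate 2 (vertical axis) for each of the 10 genes in the 4 groups, with a grey band for the median size of the ratio over all tested genes. Points lie mainly above 0 in skip-1 without ABA, where CCA1 was 3.83 times as high in replicate 1, and near 0 in skip-1 with ABA apart from RVE1.

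Levels can be compared between genes in FPKM, which corrects for gene length. In wild type without ABA, RVE2 was the most abundant transcript at 37.4 and 68.0 FPKM, followed by RVE4 at 24.0 and 33.7. RVE6 (6.49 and 7.06), RVE5 (6.83 and 6.85), LNK1 (7.04 and 4.38) and LNK2 (5.15 and 2.79) came next. LNK1 overlapped RVE6, RVE5 and LNK2, and RVE5 lay within the range of RVE6, so no neighbours in this order were separated by their spread, while LNK2 was below RVE6 and RVE5. RVE1 stood at 1.15 and 1.66 FPKM, above a lowest set of CCA1 (0.489 and 0.408), RVE8 (0.486 and 0.333) and LHY (0.362 and 0.237), in which neighbouring ranges overlapped.

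The order was different in the other groups. In wild type with ABA the FPKM of RVE2 was 76.4 and 86.4 and that of LNK1 34.3 and 11.4, while CCA1 stood at 3.94 and 2.08. In skip-1 without ABA, RVE4 was the highest at 42.8 and 39.0 FPKM, above RVE2 at 32.5 and 28.8, and CCA1 was at 18.2 and 4.54. In skip-1 with ABA, RVE2 (46.7 and 44.9 FPKM) and LNK1 (46.6 and 35.2) overlapped at the top and were followed by RVE4 (26.8 and 23.1). CCA1 came next at 22.0 and 19.3 FPKM, above RVE6 (17.1 and 17.8) and LNK2 (18.4 and 14.1), which overlapped each other. RVE5 was at 10.8 and 11.5, RVE1 at 8.49 and 2.77, RVE8 at 3.78 and 3.90 and LHY at 1.79 and 2.00 FPKM, so RVE1 overlapped RVE8 and LHY was the lowest of the 10.

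**Figure D2:**
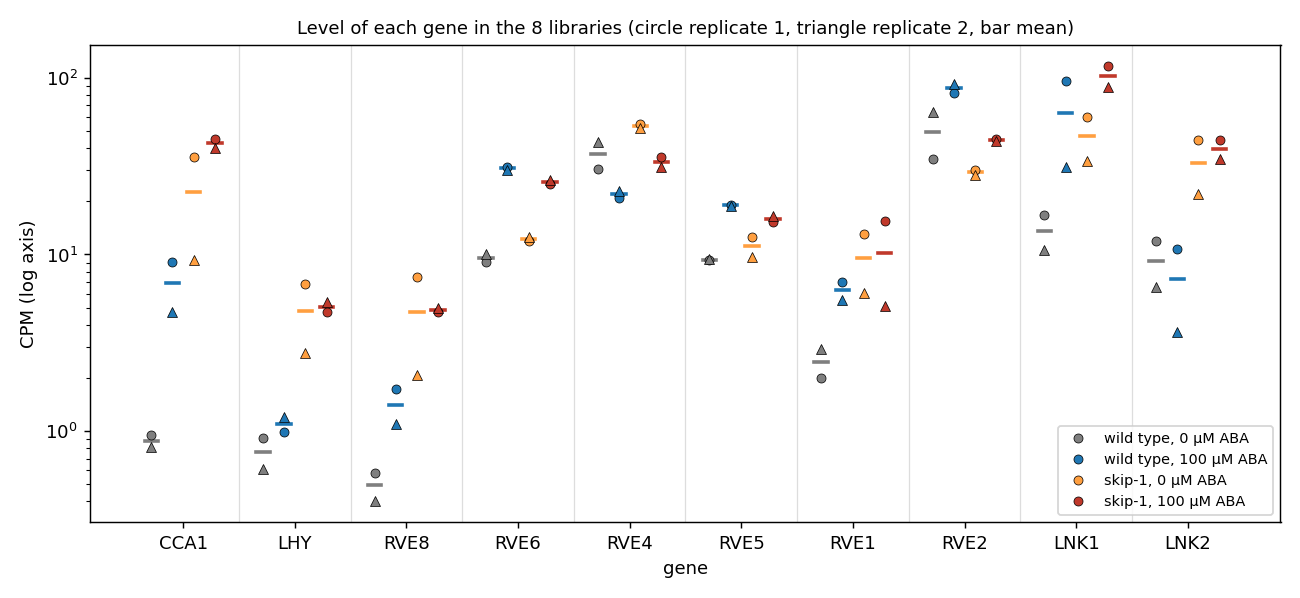
Counts scaled to library size (CPM, log axis) of each of the 10 genes in the 8 libraries, by group, with 1 point per library and a bar at the mean of each group. CCA1 runs from 0.955 and 0.810 CPM in wild type without ABA to 45.0 and 40.0 in skip-1 with ABA, while RVE2 is highest in wild type with ABA.

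Changes were tested with edgeR's quasi-likelihood test on counts, with 1 spread shared by the 4 groups, and a gene was called at a Benjamini-Hochberg adjusted p under 0.05 over all 21008 features. With ABA in wild type, 5 of the 10 genes rose (CCA1, LNK1, RVE6, RVE5 and RVE2) and RVE4 fell, where 43.1% of all tested genes were called. The median log2 fold change was 1.18 over the 10 genes and -0.01 over all genes. With ABA in skip-1, RVE6 and RVE5 rose and RVE4 fell, where 28.5% of all genes were called, and the medians were 0.38 and -0.02. These shares were not tested against each other.

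Between genotypes without ABA, edgeR called 4 of the 10 genes, all higher in skip-1 (CCA1, RVE8, LHY and RVE4), and 20.5% of all genes. DESeq2 called 8 of the 10. Its share over all genes is not given here, so that count cannot be set against 20.5%. The median log2 fold change was 1.81 over the 10 genes and 0.02 over all genes. With ABA, CCA1, LNK2, LHY and RVE4 were higher and RVE2 lower in skip-1, where 31.0% of all genes were called, and the medians were 0.70 and -0.02. In these 4 comparisons each group serves in 2 of them, so they share libraries and their values are given side by side without a correlation. The difference between the ABA effects of the 2 genotypes was called by edgeR for 0 of the 10 genes, against 3.07% of all genes. At an unadjusted p under 0.05 it counted 2 (RVE6 and RVE5), and DESeq2 called 0.

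**Figure D3:**
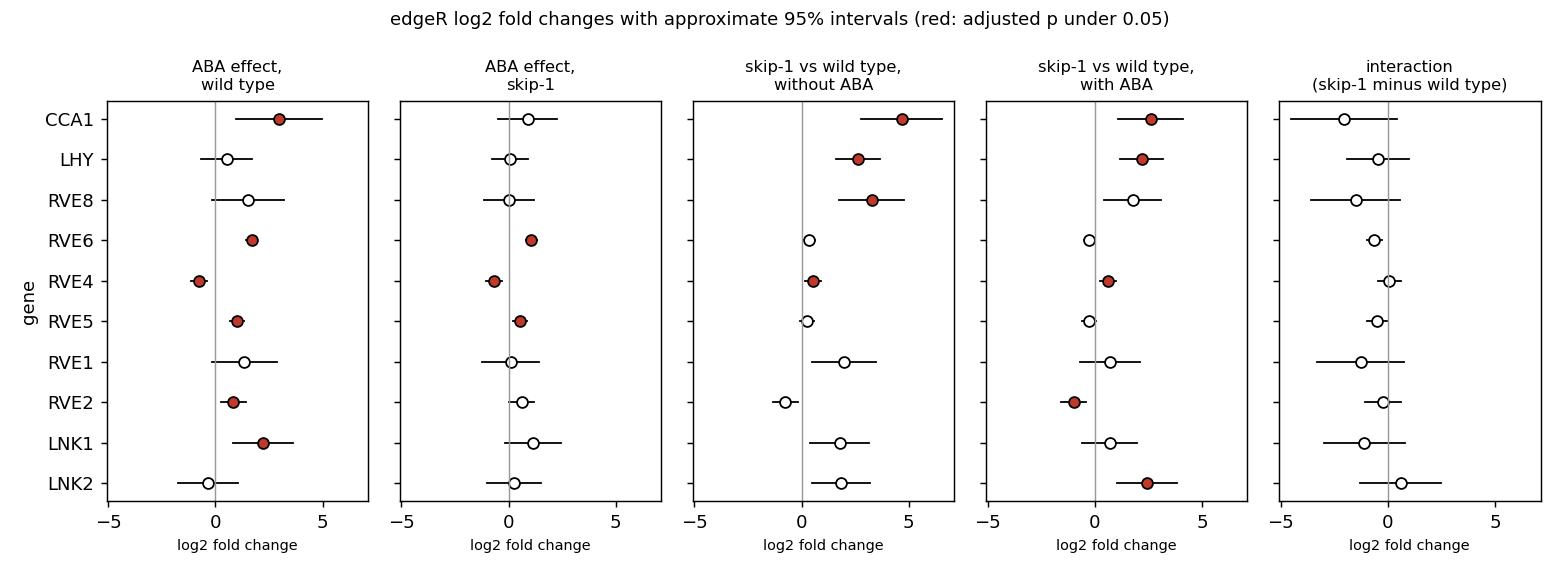
Log2 fold change (horizontal axis) of the 10 genes with approximate 95% intervals for ABA in each genotype, for genotype at each treatment and for the difference of the ABA effects, with called genes filled in red. CCA1 lies at 4.68 between genotypes without ABA and RVE2 lies left of 0 in both comparisons of genotype.

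CCA1, at chromosome 2 from 19245591 to 19248915 on the plus strand with up to 8 exons in TAIR10.1, was raised by ABA in wild type and higher in skip-1 than in wild type under both treatments. It stood at 0.955 and 0.810 CPM in untreated wild type and 9.01 and 4.70 in treated wild type. In skip-1 it stood at 35.8 and 9.36 CPM without ABA and 45.0 and 40.0 with ABA. Wild type without ABA was the low group, from 23 and 20 reads, and the libraries of no 2 groups overlapped.

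The log2 fold change of CCA1 was 2.95 ± 0.83 (SE, 2 libraries per group) with ABA in wild type, at an edgeR adjusted p of 0.0285. It was 0.90 ± 0.57 with ABA in skip-1, at an adjusted p of 0.287 and an approximate 95% interval from -0.48 to 2.28. Against wild type, skip-1 was higher by 4.68 ± 0.78 without ABA (adjusted p = 0.0109) and by 2.63 ± 0.63 with ABA (adjusted p = 0.0231). The difference between the ABA effects was -2.05 ± 1.02, with an interval from -4.52 to 0.42 and an adjusted p of 0.335.

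The CCA1 calls depended on single libraries. The ABA call in wild type was lost without wild type mock replicate 1 (adjusted p = 0.123), wild type mock replicate 2 (0.132), wild type ABA replicate 1 (0.131) or skip-1 ABA replicate 1 (0.0517), where mock is the 0 µM treatment. The higher level in skip-1 without ABA was lost without wild type mock replicate 1 (0.0725) or 2 (0.0873), and that with ABA without any of the 4 ABA libraries (0.0641 to 0.110). With no filter on low counts, the ABA call in wild type (0.0783) and the genotype call with ABA (0.0633) were lost. Without skip-1 mock replicate 1, the library in which CCA1 was highest in that group, the ABA change in skip-1 was 2.17 and was called (0.00483). Without skip-1 mock replicate 2, the difference between the ABA effects was -2.68 and was called (0.0414).

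LHY, the close relative of CCA1 at chromosome 1 from 33365 to 37871 on the minus strand with up to 10 exons, was also higher in skip-1 under both treatments but passed no test for ABA. It stood at 0.914 and 0.608 CPM in untreated wild type and 0.990 and 1.20 in treated wild type. In skip-1 it stood at 6.77 and 2.77 CPM without ABA and 4.74 and 5.36 with ABA. Every skip-1 library was above every wild type library, and the 2 skip-1 groups overlapped.

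Relative to wild type, LHY in skip-1 had a log2 fold change of 2.65 ± 0.45 without ABA (edgeR adjusted p = 0.00628) and 2.201 ± 0.44 with ABA (0.0076). The first call was lost without wild type mock replicate 2 (adjusted p = 0.0592) and the second without wild type ABA replicate 1 (0.0597). Its ABA effect was 0.52 ± 0.52 in wild type (interval -0.67 to 1.72, adjusted p = 0.457) and 0.07 ± 0.37 in skip-1 (interval -0.78 to 0.93, adjusted p = 0.906).

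RVE8, an activator of evening genes at chromosome 3 from 2946239 to 2949017 on the plus strand with up to 9 exons, was higher in skip-1 without ABA. It stood at 0.582 and 0.405 CPM in untreated wild type, from 14 and 10 reads, and 1.73 and 1.097 in treated wild type. In skip-1 it stood at 7.41 and 2.07 CPM without ABA and 4.74 and 4.95 with ABA. The 2 wild type groups did not overlap each other or skip-1, and the 2 skip-1 groups overlapped.

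In skip-1, the log2 fold change of RVE8 was 3.27 ± 0.65 without ABA (edgeR adjusted p = 0.0134) and 1.77 ± 0.57 with ABA, where it missed the threshold (interval 0.43 to 3.11, adjusted p = 0.052). The first call was lost without wild type mock replicate 1 (adjusted p = 0.0731) or 2 (0.105), and its value was 2.05 without skip-1 mock replicate 1. The ABA effect was 1.52 ± 0.73 in wild type (interval -0.18 to 3.21, adjusted p = 0.132) and 0.02 ± 0.51 in skip-1 (interval -1.16 to 1.20, adjusted p = 0.984). Several of these values moved to the other side of the threshold when a library was left out. The ABA effect was called in wild type without skip-1 mock replicate 1 (0.0117) or 2 (0.00912), and in skip-1 without skip-1 mock replicate 1, where it was 1.21 (0.0409). The genotype effect with ABA was called without skip-1 mock replicate 1 (0.0033) or 2 (0.00242), with DESeq2 (0.00705), with library size alone (0.0447), with the 2 groups fitted alone (0.00625) and without robust fitting (0.0426). The ABA effect in wild type was also called with DESeq2 (0.0376) and with the 2 groups fitted alone (0.0246).

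RVE6, of the same activator subfamily at chromosome 5 from 21359001 to 21362273 on the minus strand with up to 8 exons, rose with ABA in both genotypes. It stood at 9.06 and 10.004 CPM in untreated wild type and 31.4 and 30.1 in treated wild type, and at 11.98 and 12.6 CPM in untreated skip-1 and 25.0 and 26.4 in treated skip-1. Both ABA groups were above both untreated groups, and no 2 groups overlapped. The log2 fold change with ABA was 1.69 ± 0.11 in wild type (edgeR adjusted p = 8.87e-06) and 1.07 ± 0.11 in skip-1 (0.000237), and both calls held without each of the 8 libraries.

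The genotype effects on RVE6 were small and missed the threshold, at 0.36 ± 0.11 without ABA (edgeR adjusted p = 0.0548, interval 0.10 to 0.62) and -0.26 ± 0.11 with ABA (adjusted p = 0.103, interval -0.50 to -0.01). The difference between the ABA effects was -0.62 ± 0.16, with an interval from -0.98 to -0.26 and an adjusted p of 0.0761.

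RVE5, a further MYB of this subfamily at chromosome 4 from 535198 to 538098 on the plus strand with up to 8 exons, had the same direction of ABA change as RVE6. It stood at 9.26 and 9.44 CPM in untreated wild type and 19.0 and 18.8 in treated wild type, and at 12.5 and 9.73 CPM in untreated skip-1 and 15.3 and 16.6 in treated skip-1. The ABA groups were above the untreated groups in both genotypes. The log2 fold change with ABA was 1.02 ± 0.15 in wild type (edgeR adjusted p = 0.000626) and 0.51 ± 0.14 in skip-1 (0.0282).

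The wild type call of RVE5 held without each library, and the skip-1 call was lost without skip-1 mock replicate 2 (adjusted p = 0.124) or skip-1 ABA replicate 1 (0.0698) or 2 (0.140). It was also lost with library size alone (0.0506) and with the 2 skip-1 groups fitted alone (0.0733). The difference between the ABA effects was -0.50 ± 0.20 (interval -0.97 to -0.04, adjusted p = 0.221). Neither genotype effect was called, at 0.25 ± 0.15 without ABA (interval -0.08 to 0.59) and -0.25 ± 0.14 with ABA (interval -0.57 to 0.08). RVE5 overlaps a gene on the opposite strand by 681 bases, and the strand setting of the counting is not given, so its counts are less certain.

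RVE4, the relative of RVE8 at chromosome 5 from 648648 to 651979 on the plus strand with up to 9 exons, fell with ABA in both genotypes, opposite to RVE6 and RVE5. It stood at 30.4 and 43.5 CPM in untreated wild type and 20.88 and 22.8 in treated wild type, and at 54.6 and 52.2 CPM in untreated skip-1 and 35.7 and 31.2 in treated skip-1. Within each genotype the groups with and without ABA did not overlap, and skip-1 was above wild type at the same treatment.

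The log2 fold change of RVE4 with ABA was -0.76 ± 0.16 in wild type (edgeR adjusted p = 0.006), which held without each library and was -0.48 without wild type mock replicate 2. It was -0.68 ± 0.16 in skip-1 (0.0148), which was lost without skip-1 mock replicate 2 (0.0552) or skip-1 ABA replicate 2 (0.0934). The difference between the ABA effects was 0.08 ± 0.23 (adjusted p = 0.886). RVE4 was higher in skip-1 by 0.53 ± 0.16 without ABA (0.0481) and 0.61 ± 0.17 with ABA (0.0237). The first of these was lost without any single library other than wild type mock replicate 2, with an adjusted p of up to 0.209 and a log2 fold change of 0.29 without wild type mock replicate 1 and 0.81 without wild type mock replicate 2. It was also lost with other size factors, with library size alone, without robust fitting and with the 2 groups fitted alone (0.0515 to 0.0932). The second was lost without wild type ABA replicate 1 (0.123) or 2 (0.0700) or skip-1 ABA replicate 1 (0.120).

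RVE1, which links the clock to auxin synthesis and to chlorophyll formation, lies at chromosome 5 from 5690225 to 5692992 on the minus strand with up to 6 exons. It stood at 1.99 and 2.92 CPM in untreated wild type and 6.98 and 5.54 in treated wild type, and at 13.1 and 6.02 CPM in untreated skip-1 and 15.4 and 5.09 in treated skip-1. Wild type without ABA was the lowest group and overlapped no other, and the remaining groups overlapped. No comparison was called for RVE1 by edgeR in the design used for all genes.

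For RVE1, the log2 fold change was 1.35 ± 0.63 with ABA in wild type (interval -0.17 to 2.87, edgeR adjusted p = 0.134), and 1.96 ± 0.62 in skip-1 without ABA (interval 0.48 to 3.45, 0.07). With ABA it was 0.71 ± 0.58 in skip-1 against wild type (interval -0.68 to 2.0999, 0.391). Within skip-1, ABA gave 0.09 ± 0.56 (interval -1.25 to 1.44, 0.918). Without skip-1 ABA replicate 1 or 2, whose levels differed 3.03 times, the ABA effect in wild type was called (0.0346 and 0.0361), as was the genotype effect without ABA (0.0189 and 0.0197). The first was also called with DESeq2 (0.0172) and with the 2 groups fitted alone (0.00406), and the second with DESeq2 (0.000691), with the 2 groups fitted alone (0.0329) and without robust fitting (0.0414). RVE1 overlaps a gene on the opposite strand by 225 bases.

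RVE2, also named CIR1, lies at chromosome 5 from 14751344 to 14753088 on the minus strand with up to 5 exons. It was the only gene of the 10 with a negative fold change in skip-1 under both treatments. It stood at 34.5 and 63.7 CPM in untreated wild type and 82.4 and 92.3 in treated wild type, and at 30.2 and 28.0 CPM in untreated skip-1 and 45.2 and 44.0 in treated skip-1. The untreated wild type libraries differed most, and skip-1 was below wild type without overlap at each treatment.

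With ABA, the log2 fold change of RVE2 was 0.83 ± 0.25 in wild type (edgeR adjusted p = 0.0315). It moved to 0.43 without wild type mock replicate 1 and to 1.34 without wild type mock replicate 2, and the call was lost without any 1 of the 6 other libraries (0.0505 to 0.136). It was also lost with scaling by library size alone (0.0691), with no filter on low counts (0.0525) and with the 2 wild type groups fitted alone (0.0897). In skip-1 the ABA effect was 0.61 ± 0.25 (interval 0.02 to 1.21, 0.115), and it was called without wild type mock replicate 1 (0.00538) or 2 (0.00517), with DESeq2 (0.0487) and with the 2 groups fitted alone (0.0104). Against wild type, RVE2 in skip-1 was at -0.76 ± 0.25 without ABA (interval -1.35 to -0.16, 0.0762) and at -0.97 ± 0.25 with ABA (0.0253). Without wild type mock replicate 1 the first was -1.14 and was called (0.00433), as it was with DESeq2 (0.0133). The second was lost without wild type ABA replicate 1 (0.0748) or 2 (0.105), skip-1 mock replicate 2 (0.0581), or skip-1 ABA replicate 1 (0.103) or 2 (0.107).

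LNK1 and LNK2 encode coactivators that bind RVE8 and its relatives and are most abundant in the morning. LNK1, at chromosome 5 from 25672466 to 25676823 on the minus strand with up to 9 exons, stood at 16.7 and 10.6 CPM in untreated wild type and 95.3 and 31.3 in treated wild type. In skip-1 it stood at 59.9 and 33.9 CPM without ABA and 116 and 88.9 with ABA. Untreated wild type was below every other group, and the wild type ABA libraries spread over the ranges of both skip-1 groups.

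The log2 fold change of LNK1 with ABA was 2.21 ± 0.58 in wild type (edgeR adjusted p = 0.0219). It fell to 1.17 without wild type ABA replicate 1 (0.0888), and the call was also lost without wild type mock replicate 1 (0.0735) or 2 (0.127), with no filter on low counts (0.0697) and with the 2 wild type groups fitted alone (0.0829). In skip-1 the ABA effect was 1.12 ± 0.54 (interval -0.19 to 2.44, 0.176). The genotype effect was 1.78 ± 0.57 without ABA (interval 0.40 to 3.17, 0.0748), and it was called without wild type ABA replicate 1 or 2 (0.0267 each), with DESeq2 (0.0349), with the 2 groups fitted alone (0.0293) and without robust fitting (0.0413). With ABA it was 0.69 ± 0.54 (interval -0.61 to 1.99, 0.369).

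LNK2, at chromosome 3 from 20175370 to 20179070 on the minus strand with up to 9 exons, showed the genotype difference without an ABA change that passed the test. It stood at 11.9 and 6.56 CPM in untreated wild type and 10.8 and 3.66 in treated wild type, and at 44.3 and 22.0 CPM in untreated skip-1 and 44.5 and 34.6 in treated skip-1. All skip-1 libraries were above all wild type libraries, and ABA groups overlapped untreated groups within each genotype.

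Relative to wild type, the log2 fold change of LNK2 in skip-1 was 2.45 ± 0.58 with ABA (edgeR adjusted p = 0.0224) and 1.84 ± 0.56 without ABA (interval 0.50 to 3.19, 0.064). The first was lost without wild type ABA replicate 2 (1.87, 0.0746), skip-1 ABA replicate 1 (0.0953) or skip-1 ABA replicate 2 (0.0574), and with no filter on low counts (0.0602). The second was called without wild type ABA replicate 1 or 2 (0.0421 and 0.0425), with DESeq2 (0.0406), with the 2 groups fitted alone (0.0478) and without robust fitting (0.0341). The ABA effect was -0.35 ± 0.59 in wild type (interval -1.77 to 1.07, 0.676) and 0.25 ± 0.52 in skip-1 (interval -1.01 to 1.52, 0.755). LNK1 overlaps an opposite gene by 245 bases and LNK2 overlaps neighbouring genes by 359 bases.

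Of 4 close relatives, RVE3 (a further member of the RVE8 subfamily), LNK3 and LNK4 (short LNK proteins) were higher in skip-1 under both treatments, and RVE7 was called in no comparison. The median log2 fold change of the 4 was 3.38 without ABA and 1.84 with ABA, against 0.02 and -0.02 over all genes, of which 20.5% and 31.0% were called. RVE3 stood at 0.208 and 0.203 CPM in untreated wild type and 6.63 and 5.38 in treated wild type, and at 7.69 and 2.59 CPM in untreated skip-1 and 19.2 and 17.4 in treated skip-1. Untreated wild type was lowest, from 5 and 5 reads, and skip-1 with ABA highest, without overlap between them. RVE3 rose with ABA by 4.84 on the log2 scale in wild type (edgeR adjusted p = 0.000878, held without each library) and by 1.81 in skip-1 (0.0156, lost without skip-1 ABA replicate 1 or 2, up to 0.0618, and 2.80 without skip-1 mock replicate 1). It was higher in skip-1 by 4.62 without ABA (0.00464, lost without wild type mock replicate 2 at 0.0510) and by 1.60 with ABA (0.0237, lost without any of the 4 ABA libraries, up to 0.121).

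LNK3 stood at 0.582 and 0.851 CPM in wild type and 19.3 and 9.64 in skip-1 without ABA, and at 3.86 and 1.25 in wild type and 12.9 and 8.81 in skip-1 with ABA. Skip-1 was above wild type in every library, by 4.33 on the log2 scale without ABA (edgeR adjusted p = 0.00585) and 2.08 with ABA (0.0283). The first was lost without wild type mock replicate 1 or 2, up to 0.0516, and the second without wild type mock replicate 1 or 2, wild type ABA replicate 2, or skip-1 ABA replicate 1 or 2, up to 0.114. LNK4 was higher by 2.44 without ABA (0.0425) and 2.14 with ABA (0.0412). The first LNK4 call was lost without any library other than wild type ABA replicate 1 or 2, and the second without any library other than wild type ABA replicate 1, with adjusted p of up to 0.208 and 0.177. Without wild type ABA replicate 1 the second was 3.39. With no filter on low counts, LNK4 lost both calls and LNK3 its call with ABA.

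RVE7 stood at 14.6 and 8.26 CPM in wild type and 27.0 and 19.8 in skip-1 without ABA, and at 10.7 and 1.31 in wild type and 20.2 and 4.63 in skip-1 with ABA. Its libraries differed more within the ABA groups than between the genotypes.

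The PRR and evening genes are the counterpart of the morning genes in the clock, since several of them repress CCA1 and LHY or are repressed by them. Of 13 such genes, 2 were higher and 4 lower in skip-1 without ABA, and 3 higher and 4 lower with ABA, with median log2 fold changes of -0.11 and -0.22 against 0.02 and -0.02 over all genes, of which 20.5% and 31.0% were called. PRR9, a repressor of CCA1 and LHY expressed soon after dawn, was higher by 4.68 on the log2 scale without ABA (edgeR adjusted p = 0.0188). PRR9 had only 14 and 5 reads in untreated wild type. It stood at 0.582 and 0.203 CPM in wild type and 13.5 and 6.68 in skip-1, and the call was lost without wild type mock replicate 1 or 2 or skip-1 mock replicate 1, up to 0.124. PRR7 and PRR5, which act in the later day, were higher in skip-1 with ABA by 1.57 (0.0161) and 1.83 (0.00761), and PRR7 lost its call without skip-1 ABA replicate 1 or 2, up to 0.0727.

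PRR3 and ELF4 were lower in skip-1 under both treatments. PRR3, whose protein stabilises TOC1, stood at 44.5 and 41.2 CPM in wild type and 12.4 and 14.4 in skip-1 without ABA, with a log2 fold change of -1.67 (edgeR adjusted p = 0.00179) and of -1.19 with ABA (0.00409). ELF4, part of the evening complex, stood at 131 and 121 CPM in wild type and 37.4 and 58.4 in skip-1 without ABA, a log2 fold change of -1.40 (0.0168). With ABA it stood at 361 and 224 in wild type and 52.6 and 64.5 in skip-1, a log2 fold change of -2.32 (0.00207).

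ELF3, also of the evening complex, had a log2 fold change of -0.62 in skip-1 without ABA (edgeR adjusted p = 0.00539, held without each library). The ELF4 call without ABA was lost without wild type mock replicate 1 or 2 or skip-1 mock replicate 1, up to 0.0785, and both calls of PRR3 and the calls of PRR5 and ELF4 with ABA held without each library. With ABA in wild type, ELF4 rose by 1.21 on the log2 scale (0.0116, lost without wild type mock replicate 1 or 2 or wild type ABA replicate 1, up to 0.0746 and as low as 0.80 without the last). ELF3 fell by 0.33 (0.0284, lost without any of the 4 wild type libraries, up to 0.132). ELF4 and ELF3 were the 2 of the 13 genes called with ABA in wild type, against 43.1% of all genes. The median log2 fold change of the 13 there was 0.06, against -0.01 over all genes. With ABA in skip-1, edgeR called 0 of the 13, against 28.5% of all genes. There 0 had an unadjusted p under 0.05, and DESeq2 called 0.

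PRR5 without ABA, PRR9 with ABA, TOC1 and BOA were also called between genotypes and are named here after their values were seen. PRR5 was higher in skip-1 by 1.499 without ABA (edgeR adjusted p = 0.0209, lost without any untreated library but wild type replicate 1, up to 0.113). PRR9 was higher by 3.13 with ABA (0.0293, lost without wild type mock replicate 1 or any ABA library but skip-1 replicate 2, up to 0.121). TOC1, the evening repressor of CCA1 and LHY, was at -0.81 without ABA (0.0373) and -0.69 with ABA (0.0454). Each TOC1 call was lost without any wild type library, and without skip-1 replicate 1 of the same treatment, up to 0.160 and 0.202, and the first was -0.52 without skip-1 mock replicate 1. BOA, a relative of the evening complex gene LUX, was at -1.55 with ABA (0.0316, lost without any of the 4 ABA libraries, up to 0.150). With no filter on low counts PRR9, TOC1 and BOA lost their calls with ABA. With the 2 groups fitted alone, PRR9 lost its call with ABA and TOC1 its call without ABA, and with library size alone TOC1 lost its call with ABA.

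**Figure D4:**
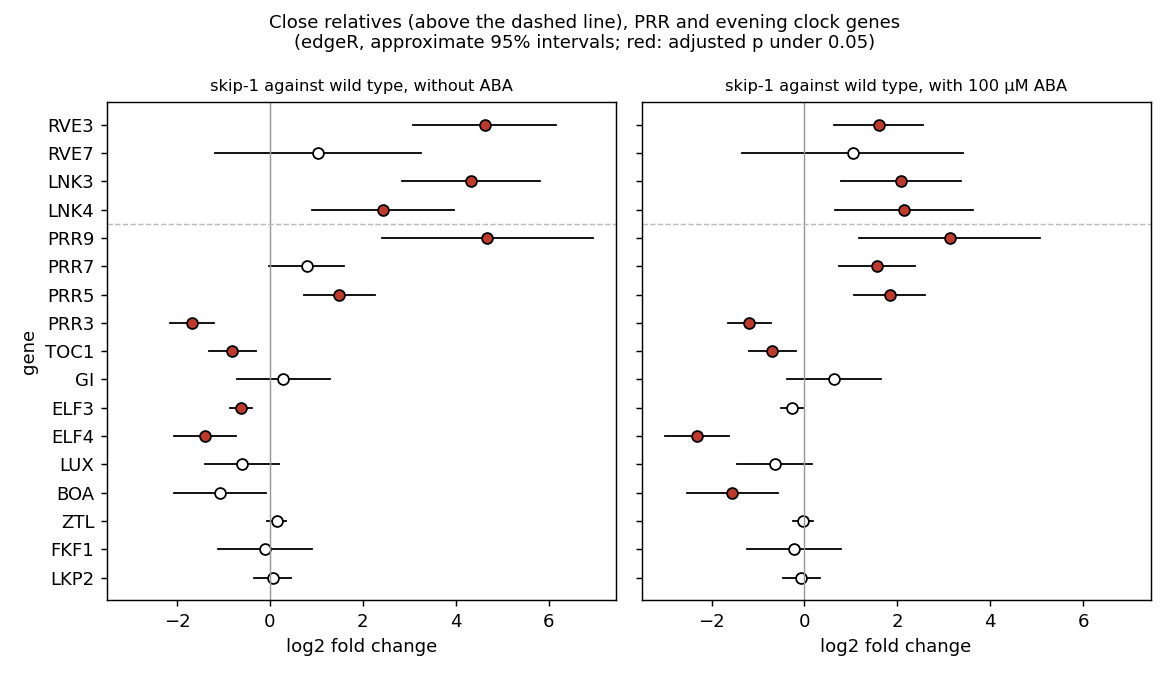
Log2 fold change of skip-1 against wild type (horizontal axis) for 4 close relatives and 13 PRR and evening genes, without ABA and with 100 µM ABA, with approximate 95% intervals and called genes in red. RVE3, LNK3, LNK4, PRR9 and PRR5 lie right of 0 and PRR3, TOC1 and ELF4 left of 0 in both panels.

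Among 9 other clock regulators, 1 was called between genotypes without ABA and 3 with ABA, with median log2 fold changes of 0.04 and 0.05. These counts are near or below the 20.5% and 31.0% called over all genes. For the ABA effect itself, edgeR called 2 of the 9 in wild type (TCP21 and XCT), against 43.1% of all genes. In skip-1 it called 1 (TCP21), against 28.5%. JMJ30, a histone demethylase gene of the evening, stood at 121 and 149 CPM in wild type and 12.3 and 22.4 in skip-1 without ABA, and at 129 and 155 in wild type and 13.8 and 25.2 in skip-1 with ABA. Every skip-1 library was below every wild type library, with log2 fold changes of -2.97 (edgeR adjusted p = 0.00449) and -2.86 (0.00296), and both held without each library. TCP21, whose protein binds the CCA1 promoter, fell with ABA by 1.71 in wild type (0.000319) and by 1.23 in skip-1 (0.00293), and both held without each library. It was higher in skip-1 with ABA by 0.67 (0.0399), which was lost without any library other than skip-1 ABA replicate 2, up to 0.222, and was 0.32 without skip-1 ABA replicate 1. XCT, a further clock regulator, was at 0.39 with ABA in wild type (0.0193) and at -0.42 in skip-1 against wild type with ABA (0.0212). The first was lost without wild type mock replicate 1 or wild type ABA replicate 1 or 2, up to 0.144, and the second without any of the 4 ABA libraries, up to 0.100, and both were lost with library size alone.

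Of 12 genes taken as clock outputs, 7 were higher and 1 lower in skip-1 without ABA, and 6 were higher with ABA, with median log2 fold changes of 1.56 and 1.19 against 0.02 and -0.02 over all genes, of which 20.5% and 31.0% were called. With ABA, 1 rose and 4 fell in wild type and 2 fell in skip-1, with medians of -0.72 and -0.56 against -0.01 and -0.02 and with 43.1% and 28.5% of all genes called. PORA, a protochlorophyllide reductase gene that RVE1 regulates, stood at 1.74 and 1.42 CPM in wild type and 17.4 and 21.1 in skip-1 without ABA. It was higher in skip-1 by 3.60 on the log2 scale without ABA (edgeR adjusted p = 0.0003) and by 2.44 with ABA (0.00104), and it fell with ABA in skip-1 by 1.76 (0.00101), and all 3 held without each library. YUC8, an auxin synthesis gene also downstream of RVE1, fell with ABA in wild type by 1.82 (0.000444). RVE1 itself was at 1.35 in that comparison and was not called by edgeR (0.134). A link between the changes of these genes was not tested. PIF4, a growth-promoting bHLH gene, was higher in skip-1 by 1.42 without ABA (0.00875, lost without wild type mock replicate 2 at 0.0659) and by 2.24 with ABA (0.00125). CDF5, a repressor of flowering genes, was higher by 2.51 without ABA (0.00268) and by 2.45 with ABA (0.00359), and PIF5, a relative of PIF4, by 2.62 with ABA (0.00387), and these 3 held without each library. CDF5 rested on few reads in wild type, 9 and 9 without ABA and 5 and 4 with ABA. The RNA-binding protein genes CCR1 and CCR2 fell with ABA in wild type by 1.03 (0.00078) and 1.31 (0.00376), and CCR1 in skip-1 by 0.80 (0.00523). The output list includes a light-harvesting gene that is also a shoot marker.

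The genes whose log2 CPM followed CCA1 most closely over the 8 libraries, of 15809 ranked, were GBSS1 (AT1G32900, a starch synthase gene) at a Pearson r of 0.986, AT3G54930 at 0.983, GR (AT3G54660, glutathione reductase) at 0.981, DWF4 (AT3G50660, a brassinosteroid synthesis gene) at 0.979 and TBL33 (AT2G40320) at 0.977. Those most opposed were SMT1 (AT5G13710, a sterol methyltransferase gene) at -0.992, OASB (AT2G43750, a cysteine synthesis gene) at -0.987, AT5G65950 at -0.986, CKA1 (AT5G67380, a casein kinase subunit gene) at -0.985 and AT5G10540 at -0.985. A high r does not mean a change of like size. Over the 8 libraries CCA1 ran from 0.810 to 45.0 CPM and GBSS1 from 3.04 to 115. The other genes most like CCA1 moved far less, AT3G54930 from 3.69 to 6.59, GR from 136 to 192, DWF4 from 14.2 to 31.6 and TBL33 from 4.03 to 6.88. SMT1 ran from 92.5 to 206 and OASB from 149 to 221. Within the 10 genes, RVE8 followed CCA1 at 0.978, LHY at 0.913, LNK1 at 0.907, RVE1 at 0.858 and LNK2 at 0.777. RVE5 and RVE6 followed CCA1 at 0.537 and 0.526 and each other at 0.964. RVE4 (0.142) and RVE2 (-0.253) did not follow it. The points are the 8 libraries of 4 groups. These coefficients therefore mix differences between groups with differences between the 2 libraries of a group, and they carry no p.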

How the data were processed

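The deposited read counts per gene of 8 libraries were the main values. The authors' FPKM, fragments per kilobase scaled to the reads of the library, were used for levels between genes only, and each equals the count divided by gene length and library total (21163 genes with reads in all libraries, relative deviation of at most 9.76e-15). Per the submitters' processing notes, Bowtie2 2.2.3, TopHat2 2.0.12 and HTSeq 0.6.1 were used with TAIR10. The sources used here do not state their roles or options, the strand setting or the release of the annotation.

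Counts were fitted in R 4.3.3 with edgeR 4.0.16 (TMM scaling, expression filter by group, robust quasi-likelihood F test, 1 coefficient per group over all 8 libraries, no replicate term) and adjusted by Benjamini-Hochberg over 21008 features, 72 unannotated features being among the 33674 deposited. The residual degrees of freedom were 4. CPM use TMM-scaled library sizes, and correlations use log2 CPM with a prior count of 2. The SE was taken as the size of the change over the root of F, and intervals are approximate. The procedure was tested on simulated data. DESeq2 1.42.0, other scalings, other filters and leaving out each library were alternatives.

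All 10 genes are named. From each of 4 lists of related genes, all close relatives and otherwise up to 4 genes with the smallest adjusted p in a comparison are named, and the 5 genes most and least like CCA1 with mean log2 CPM of at least 2. The genes and lists were chosen with earlier results of these data known, so they are descriptions and support nothing on their own. Sequences and positions are from RefSeq TAIR10.1. Gene counts do not resolve splicing.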

Additional observations from a re-analysis of the deposited data

Results flagged for a closer look

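CDF1, a clock output gene for a repressor of flowering genes, was called for the difference between the ABA effects of the 2 genotypes. It was picked because of this call. For this difference edgeR called 1 of 12 clock outputs, against 3.07% of all genes. It called 0 of 4 close relatives, 0 of 13 PRR and evening genes and 0 of 9 other clock regulators. DESeq2 called 2 of 12 clock outputs and 2 of 4 close relatives (RVE3 and LNK3). CDF1 stood at 3.70 and 4.90 CPM in untreated wild type and 42.4 and 24.8 in treated wild type. In skip-1 it stood at 18.5 and 13.9 CPM without ABA and 29.4 and 25.6 with ABA. Both ABA groups were above both untreated groups and overlapped each other. The log2 effect of ABA was 2.96 in wild type and 0.76 in skip-1, and the effect in skip-1 minus that in wild type was -2.20 (edgeR adjusted p = 0.0352). The call was lost without any library other than wild type ABA replicate 2, with an adjusted p of up to 0.132, and its genotype difference without ABA was 1.91 (0.0056).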

How the results depend on the processing

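No called value of the 10 genes reversed its direction. Over 400 values with 1 library left out, 336 kept their side of the threshold, 46 lost it and 18 gained it, and over 390 values in other settings 350 kept it, 14 lost it and 26 gained it. The genes called were 6 with ABA in wild type (8 with DESeq2, 3 with no filter on low counts, 3 to 6 with a library left out) and 3 with ABA in skip-1 (1 to 5). Between genotypes without ABA they were 4 (8 with DESeq2, 8 with the replicate block, 1 to 5 with a library left out), and with ABA 5 (3 with no filter, 1 to 6). For the difference of the ABA effects they were 0 (0 to 1). The shares over all genes given above are those of the main edgeR fit, and the counts in other settings are not set against them. The replicate block lost no call of these genes. It added LNK1 with ABA in skip-1 (adjusted p = 0.0327), RVE1, RVE6, LNK1 and LNK2 between genotypes without ABA (0.0488, 0.0470, 0.0156 and 0.00303) and RVE8 with ABA (0.0174). Deviations of replicate 1 correlated at 0.111 to 0.258 over the 6 pairs of groups, but with 2 libraries a group the signs are not independent and the numbers do not establish pairs. Over all genes, the difference of the ABA effects was called for 644 (1201 with DESeq2, 1357 with the replicate block, 121 to 608 with a library left out), and the counts with a library left out were 1383 to 3785 between genotypes without ABA (4297 in all), 3521 to 6851 with ABA (6504) and 3532 to 5625 with ABA in skip-1 (5978). Scaling by library size alone moved the median log2 fold change of all genes with ABA in wild type from -0.01 to -0.22, with 3743 higher and 6658 lower against 4974 and 4087, and between genotypes with ABA from -0.02 to 0.12, with 4180 higher and 2493 lower against 2855 and 3649. It moved that of the difference of the ABA effects from -0.02 to 0.15, with 297 higher and 238 lower against 168 and 476. The cause was not tested. With 2 libraries a group and 10 to 23 reads behind CCA1, LHY and RVE8 in untreated wild type, their intervals were wide. The related genes RVE3 and CDF5 had still fewer reads there. PRR9 had 14 and 5 reads there, and LNK3 had 14 and 21.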
